A study of Mus musculus with 6 samples.

Results

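The interferon-stimulated genes described here were a named set of 33 genes, Ifit1, Ifit2, Ifit3, Isg15, Isg20, Irf7, Irf9, Irf1, Stat2, Oasl1, Oasl2, Oas1a, Usp18, Rsad2, Cmpk2, Xaf1, Bst2, Rtp4, Ifi44, Ifi35, Ifih1, Ddx58, Ddx60, Zbp1, Parp14, Trim30a, Igtp, Irgm1, Iigp1, Gbp2, Gbp3, Gbp7 and Ifi27l2a, taken by symbol from 16557 genes in the single-cell tables of 6 mouse rhabdoid tumors. All 33 were listed in 5 tables, and the table of the second spinal tumor held 31 of them, so that a gene missing there counted as 0. The MYC spinal group held replicates 1 to 3, called spinal 1 to spinal 3 here, from Rosa26-cre animals aged 19, 26 and 17 weeks. The extracranial (eRT) group held eRT 1, from a gland of a Rosa26-cre animal aged 17 weeks by the labels (the study's animal list gives another age), and the Sox2-cre tumors eRT 2 from the jaw and eRT 3 from the shoulder, at 29 and 22 weeks. Every animal carried Smarcb1 alleles that an inducible Cre removes, expressed ubiquitously from Rosa26 or from Sox2, and received tamoxifen before birth through the dam, so no sample without Smarcb1 loss was compared. Both Sox2-cre tumors were eRT, so Cre model and location were partly confounded. Each tumor gave 1 library, and tumor and library cannot be told apart.

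Interferons are secreted when a cell senses foreign or misplaced nucleic acid. Type I interferons act through the receptor of Ifnar1 and Ifnar2, and interferon gamma through that of Ifngr1 and Ifngr2. JAK kinases then phosphorylate STAT proteins. A complex that holds Stat2 and Irf9 binds the interferon-stimulated response element (ISRE), and interferon gamma acts on genes with a gamma-activated site (GAS). The genes switched on in this way include antiviral effectors, sensors of viral RNA, guanosine triphosphatases (GTPases) that act on vacuoles holding pathogens, and feedback inhibitors. The question addressed was how strongly these genes were transcribed in the tumor cells of each tumor, cycling or not, and in the immune cells around them.

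The tables held 22681 cells, of which 22163 were kept, with medians of 916 to 5211 unique molecular identifiers (UMIs, each marking 1 captured RNA molecule) per cell. Cells in clusters with almost no Smarcb1 UMIs were taken as tumor cells, which gave 97, 16, 1463, 68, 203 and 628 cells in spinal 1 to 3 and eRT 1 to 3. Smarcb1 itself was at 0, 0, 22, 3, 1 and 6 UMIs in them. At the level of the immune-like cells, 32.4, 1.16, 456, 33.4, 21.6 and 157 would have been present. The clusters were chosen by such counts, so these values are no separate check of the name. The 16 tumor cells of spinal 2 were too few to show a loss by themselves. Other clusters were named macrophage-like, T cell-like and so on from their marker genes. The 33 genes were left out of the genes used for clustering, so the kinds of cells were not drawn from their levels. RNA of immune cells was present in the tumor cells: the summed level of 10 genes of immune cells (S100a8, S100a9, Lyz2, Tyrobp, Fcer1g, Ptprc, Laptm5, Cd52, Coro1a and Rac2) was 134.3, 13430, 1308, 1694, 1260 and 1338 CPM (UMIs scaled to a common library total) in the same order of tumors, or 1.09% to 11.6% of the level in immune-like cells, highest in spinal 2. Of these 10 genes, 9 had a UMI in spinal 1 (S100a9 was at 0), 9 in spinal 2 (Laptm5 was at 0) and 10 in each other tumor, and their part in the results was not tested. Some cells of spinal 1 and spinal 2 went against their names. The 24 progenitor-like cells of spinal 1 held no UMI of 5 progenitor markers and held T cell markers at 4082 CPM, near the 5980 CPM of its T cell-like cells, and its 42 monocyte-like cells held T cell markers at 2685 CPM beside monocyte markers at 5416 CPM. The 203 macrophage-like cells of spinal 2 held macrophage markers at 4373 CPM, against 13520 CPM or more in the other tumors. Sums over cells also cannot tell fewer expressing cells from less RNA in each cell.

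In tumor cells, the level of most members ran from high in spinal 1 and the gland tumor eRT 1 to low in eRT 3 and spinal 2, so that tumors of the same group lay at both ends. Isg15, a ubiquitin-like protein that is attached to other proteins after interferon, was at 1348 CPM in spinal 1, 66.3 in spinal 2, 329.8 in spinal 3, 1139 in eRT 1, 291 in eRT 2 and 130.2 in eRT 3. It was detected in 90.7% of the tumor cells of spinal 1 (exact binomial 95% interval 83.1% to 95.7%) and 28.8% of those of eRT 3 (25.3% to 32.5%). Igtp, a GTPase of the immunity-related family, was at 138 CPM in spinal 1, 19.8 in spinal 3, 57.7 in eRT 1, 6.39 in eRT 2 and 7.60 in eRT 3, with no UMI in spinal 2, where 3 UMIs would be 66.3 CPM. The groups overlapped for both genes: the highest and the lowest tumor of Isg15 were both spinal, and the Igtp level of eRT 1 lay between those of spinal 1 and spinal 3. The exact Poisson 95% intervals of Isg15 were 1253 to 1449 CPM in spinal 1, 1044 to 1240 in eRT 1 and 13.7 to 194 in spinal 2. Intervals cover counting error only.

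Ifi27l2a, an interferon-induced gene of the Ifi27 family, had the most UMIs of the set, with 11810 CPM in spinal 1, 972 in spinal 2, 3185 in spinal 3, 4934 in eRT 1, 1829 in eRT 2 and 539.8 in eRT 3. Bst2, tetherin, which holds budding virus on the cell surface, was at 1537, 353, 1130, 940.2, 366 and 273 CPM in the same order of tumors. Both genes had UMIs in all 6 tumors, with spinal 1 highest and eRT 3 lowest. Ifit1, which binds foreign capped RNA, was at 898 CPM in spinal 1, 0 in spinal 2, 227 in spinal 3, 541 in eRT 1, 227 in eRT 2 and 69.1 in eRT 3. Ifit3, a partner in the same family, was at 443, 0, 33.6, 259, 36.7 and 7.60 CPM, although part of its reads could be shared with the near-identical Ifit3b. Both were detected in every tumor except spinal 2, where only 13 of the 33 members had any UMI among its 16 tumor cells. Irf7, the transcription factor that drives type I interferon genes, was at 229, 0, 45.8, 320.5, 41.5 and 12.9 CPM. Rtp4, an interferon-induced chaperone of membrane receptors, was at 321 CPM in spinal 1, 0 in spinal 2, 61.0 in spinal 3, 175 in eRT 1, 24.0 in eRT 2 and 7.27 in eRT 3. The oligoadenylate synthetase-like gene Oasl2 was at 327, 0, 34.6, 156, 43.1 and 12.6 CPM. Spinal 1 was the highest tumor for each of these genes except Irf7, where eRT 1 was. Ifi35, an interferon-induced leucine zipper protein, was at 230.5, 0, 66.6, 126, 57.5 and 46.3 CPM.

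**Figure D1:**
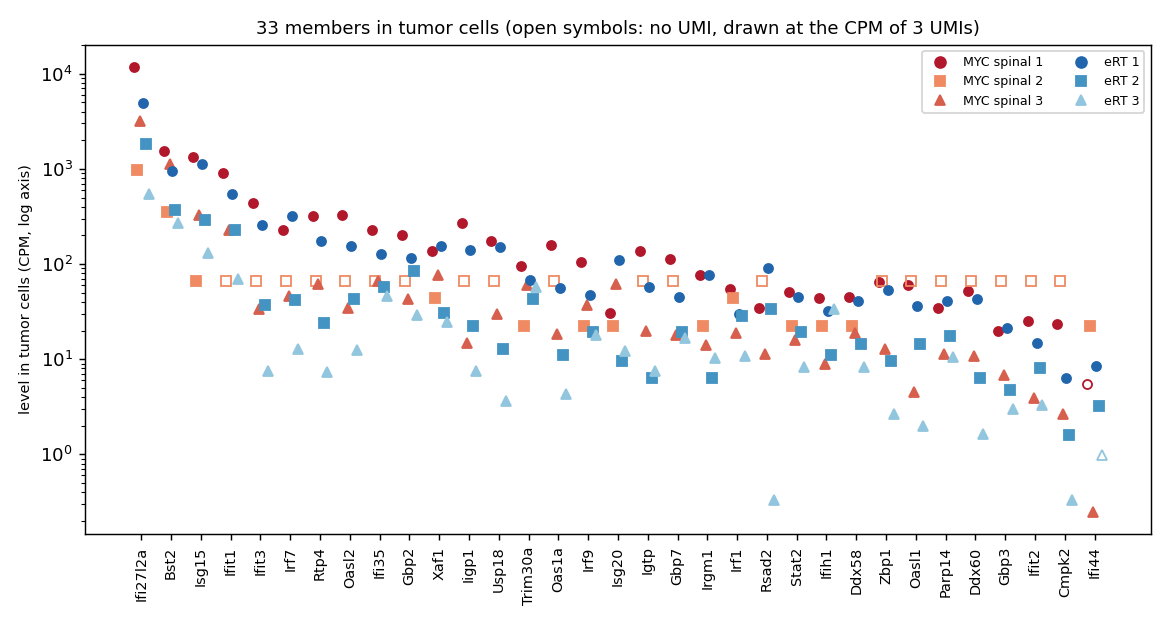
Level of each of the 33 members in tumor cells, in CPM on a log axis, with a symbol for each of the 6 tumors; open symbols mark tumors with no UMI, drawn at the CPM of 3 UMIs. Spinal 1 was highest for 25 members, eRT 1 for 7 and spinal 2 for 1 (Ifi44).

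By role, the highest tumors were alike and the lowest tumor differed. The summed level of the 4 transcription factors Irf7, Irf9, Irf1 and Stat2 was 439 CPM in spinal 1, 88.3 in spinal 2, 118 in spinal 3, 442 in eRT 1, 109 in eRT 2 and 49.9 in eRT 3. That of the 4 sensors of nucleic acid, Ifih1, Ddx58, Ddx60 and Zbp1, was 207, 44.2, 51.0, 169, 41.5 and 45.9 CPM. That of the 6 GTPases Igtp, Irgm1, Iigp1, Gbp2, Gbp3 and Gbp7 was 820.3, 22.1, 116, 455, 144 and 74.0 CPM. In each of these 3 roles the 2 highest tumors were spinal 1 and eRT 1. Over all 33 members the sum was 19160, 1656, 5633, 10070, 3353 and 1374 CPM, a 13.9-fold range, and without Ifi27l2a it was 7348, 685, 2448, 5139, 1524 and 834 CPM, a 10.7-fold range. The macrophage markers were at 644, 88.3, 322, 964, 564 and 1998 CPM in these tumor cells, highest in eRT 3. Their part in the levels of the members was not tested.

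The start sites of the abundant members are shown because the binding sites of the interferon pathway can be read there. The members were chosen as interferon-stimulated genes, so the shares below describe the list and not the tumors. Of the 33 members, 27 had a window in the RefSeq promoter table (GRCm38.p6, 250 bases before to 50 after a start site), and Usp18, Rtp4, Zbp1, Parp14, Iigp1 and Ifi27l2a had none. An ISRE core, GAAANNGAAA on either strand, stood in 16 of the 27 members (59.3%) and in 3.44% of all 32851 windows. A GAS core, TTCNNNGAA, which reads alike on both strands, stood in 8 members (29.6%) and in 8.3% of all windows. Members with several windows had more chances of a match, and over the 34 member windows the shares were 50% for ISRE and 23.5% for GAS. A match of letters is a description and not a bound site. In the following stretches of 250 bases, read 5′ to 3′ along the gene up to the base before the start site, capitals mark ISRE and GAS cores, which overlap in Bst2 and run into each other in Isg15.

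Isg15, chr4:156200819-156201068, minus strand, GRCm38.p6: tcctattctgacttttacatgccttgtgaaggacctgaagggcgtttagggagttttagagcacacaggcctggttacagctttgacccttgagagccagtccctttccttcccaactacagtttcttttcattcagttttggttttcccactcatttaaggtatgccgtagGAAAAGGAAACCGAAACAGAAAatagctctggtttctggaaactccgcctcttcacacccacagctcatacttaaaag
Bst2, chr8:71537473-71537722, minus strand, GRCm38.p6: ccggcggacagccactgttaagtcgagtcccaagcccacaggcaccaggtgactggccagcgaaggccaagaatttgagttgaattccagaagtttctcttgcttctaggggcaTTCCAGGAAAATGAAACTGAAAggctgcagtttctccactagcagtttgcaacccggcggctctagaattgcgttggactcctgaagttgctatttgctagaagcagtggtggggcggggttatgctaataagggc
Ifit1, chr19:34640639-34640888, plus strand, GRCm38.p6: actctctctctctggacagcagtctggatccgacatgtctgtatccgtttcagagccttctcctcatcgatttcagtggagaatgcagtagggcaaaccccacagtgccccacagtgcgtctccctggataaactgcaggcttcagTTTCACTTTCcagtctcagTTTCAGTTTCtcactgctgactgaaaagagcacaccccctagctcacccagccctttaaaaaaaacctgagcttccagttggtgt
Ifit3, chr19:34583279-34583528, plus strand, GRCm38.p6: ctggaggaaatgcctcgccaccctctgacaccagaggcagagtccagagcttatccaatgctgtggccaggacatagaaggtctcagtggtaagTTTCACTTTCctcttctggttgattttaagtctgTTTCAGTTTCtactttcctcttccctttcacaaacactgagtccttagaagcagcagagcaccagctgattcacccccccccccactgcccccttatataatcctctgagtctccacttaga
Ifit2, chr19:34550444-34550693, plus strand, GRCm38.p6: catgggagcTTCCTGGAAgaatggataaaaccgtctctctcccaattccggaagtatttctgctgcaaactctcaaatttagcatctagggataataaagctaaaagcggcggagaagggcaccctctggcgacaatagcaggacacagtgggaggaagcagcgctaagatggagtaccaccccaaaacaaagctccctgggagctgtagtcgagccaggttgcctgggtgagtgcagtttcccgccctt

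In Isg15, 3 ISRE cores began 78, 72 and 66 bases before the start site. Ifit1 held 2 ISRE cores, at 104 and 85 bases before its start, and Ifit3 held 2, at 156 and 122 bases. Bst2 held 2 ISRE cores at 130 and 124 bases, overlapped by a GAS core at 136 bases. Ifit2, a further RNA-binding member whose tumor-cell level reached only 25.4 CPM, held no ISRE core in its windows and a GAS core at 241 bases in the stretch shown. Ifit1, Ifit2 and Ifit3 lie within 99.3 kb of each other on chromosome 19 (GRCm38.p6). No window of Irf7, Irf9, Oasl1, Oasl2, Cmpk2, Xaf1 or Ifi44 held either core.

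Without Ifi27l2a, immune-like cells had the same tumor at the top as the tumor cells, and the same 2 tumors at the bottom. Without Ifi27l2a, the summed level in immune-like cells was 5368 CPM in spinal 1, 425 in spinal 2, 1534 in spinal 3, 3357 in eRT 1, 2405 in eRT 2 and 720.4 in eRT 3. From high to low the tumor cells ran spinal 1, eRT 1, spinal 3, eRT 2, eRT 3 and spinal 2, and the immune-like cells differed from that order only in that eRT 2 stood above spinal 3. The order of the lowest 2 in tumor cells was not resolved, since the interval of spinal 2 (465 to 972 CPM) held the level of eRT 3, and with Ifi27l2a included eRT 3 was the lowest in tumor cells and spinal 2 in immune-like cells. Spinal 1 was highest in 7 of the 7 immune types of which it had 10 cells or more, its progenitor-like cells included, and spinal 2 was lowest in 7 of 8, the exception being macrophage-like cells, where eRT 3 was lowest. In macrophage-like cells the sum was 6478, 950.2, 1640, 3223, 2487 and 669 CPM in the order spinal 1 to 3 and eRT 1 to 3. In T cell-like cells it was 5646, 616, 1143, 2613, 1781 and 910.3 CPM, and in NK cell-like cells 3703, 765, 789, 2323, 1069 and 1431 CPM. Spinal 1 and eRT 1 were thus the highest in both lymphoid types as well. Spinal 1 had the highest level of 28 of the 33 members in macrophage-like cells, of 28 in T cell-like cells and of 24 in NK cell-like cells. A tumor's tumor cells and immune cells came from the same library, so the shared order cannot be told apart from a difference between libraries. The mix of immune-like cells also differed between tumors, with 847 T cell-like cells among the 1333 of spinal 1. After thinning every tumor cell to 1000 UMIs, which left out 1 cell of spinal 1, 3 of spinal 2 and 21 of eRT 2 as shallower, the members without Ifi27l2a gave 7.86, 0.692, 2.85, 5.62, 0.984 and 0.884 UMIs per cell in the same order, again highest in spinal 1 and eRT 1.

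**Figure D2:**
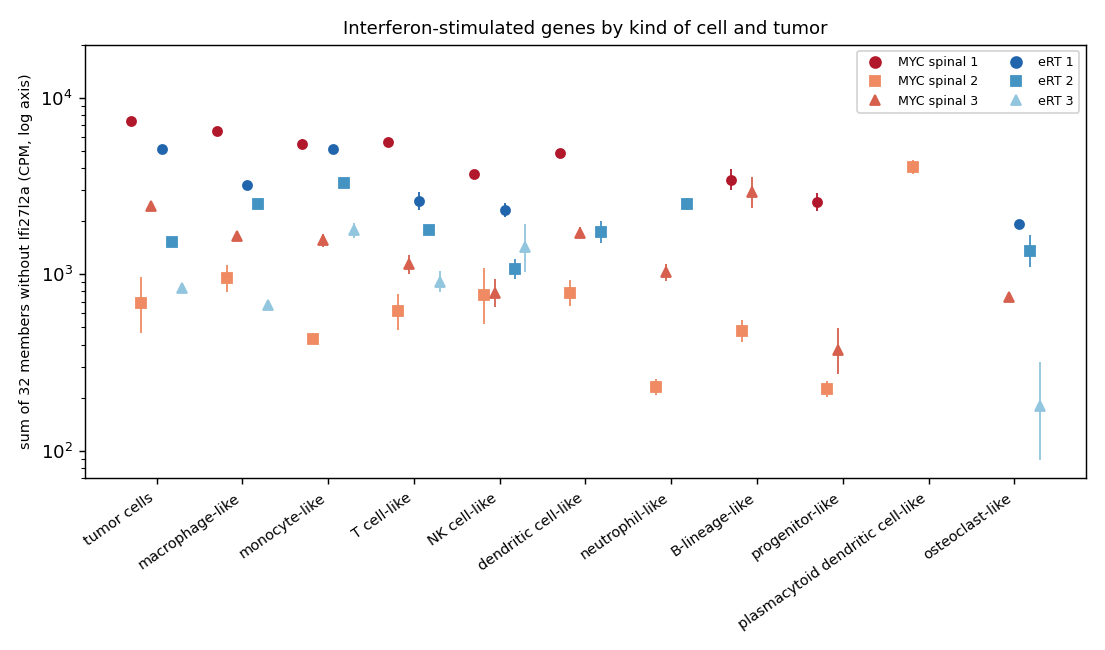
Summed level of the 32 members without Ifi27l2a in each kind of cell, in CPM on a log axis, with a symbol for each tumor that had 10 cells of that kind and the exact Poisson 95% interval as a bar. In tumor cells the sums ran from 685 CPM in spinal 2 to 7348 CPM in spinal 1, and spinal 1 was also the highest tumor in each of the 7 immune types of which it had 10 cells. The progenitor-like cells of spinal 1, counted among these, held no UMI of the progenitor markers and held T cell markers.

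The comparison of eRT with MYC spinal tumors asked whether these levels differed by location, and no member passed the test in tumor cells. Among the 33, 26 passed the filter on low counts, and 0 were called by edgeR's quasi-likelihood test at an adjusted p under 0.05, beside 0% of the 5720 genes tested. At an unadjusted p under 0.05 the count was 0, and DESeq2 called 0. Isg15 differed by 0.11 on the log2 scale (SE 0.98, 95% interval -2.16 to 2.38) and Igtp by -1.22 (SE 1.03, 95% interval -3.61 to 1.17), eRT minus MYC spinal, so the intervals spanned several fold in both directions at 3 tumors a group. The median over the 26 members was -0.25, beside 0.05 over all genes, and it was 0.83 without spinal 1 and 0.17 without eRT 3. Leaving out the TMM factors that scale between libraries moved the median of all genes by -0.34. None of the 33 members had groups that did not overlap, and the share of all genes that did so was not counted.

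The immune types gave the same answer with 1 partial exception. In macrophage-like cells 0 of 32 members tested were called (0% of 8589 genes were), with 0 at an unadjusted p under 0.05 and 0 by DESeq2. The median there was -0.57, and 0.90 without spinal 1. In T cell-like cells it was 0 of 17 (0% of 2922 genes) and in NK cell-like cells 0 of 11 (0% of 2309 genes), with 0 at an unadjusted p under 0.05 and 0 by DESeq2 in each. In monocyte-like cells 0 of 27 were called, where 1.65% of 4121 genes were, and 2 members had an unadjusted p under 0.05. Those were Rsad2, viperin, which makes a nucleotide that stops viral RNA synthesis, and Ifit2. Rsad2 in monocyte-like cells was at 70.04 CPM in spinal 1, 3.55 in spinal 2 and 79.0 in spinal 3, against 640.5 in eRT 1, 575 in eRT 2 and 119 in eRT 3. It was the only 1 of the 33 members whose groups did not overlap there. The share of all genes without overlap was not counted, so nothing about the members is read from this. The difference was 3.49 on the log2 scale (SE 1.03, adjusted p = 0.158 with edgeR), and DESeq2 called it (3.46, SE 0.91, adjusted p = 0.00509).

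Within tumors, tumor cells differed from immune-like cells gene by gene, with members on both sides. All 33 members were tested, with the tumor as a block, and 3 were higher in tumor cells and 11 lower, beside 17.2% of 12093 genes higher and 19.1% lower. The share of higher members was thus below the background and that of lower members above it. The median over the members was -0.68 on the log2 scale and -0.04 over all genes. The split depended on scaling: without the TMM scaling factors, which moved the median of all genes by 0.28, it was 5 higher and 5 lower. The summed level, in CPM, ran the other way in most tumors. Without Ifi27l2a, tumor cells over immune-like cells gave ratios of 1.37, 1.61, 1.6, 1.53, 0.634 and 1.16 in spinal 1 to 3 and eRT 1 to 3. With Ifi27l2a the ratios were 2.52, 1.67, 1.88, 1.82, 1.04 and 0.992. The interaction with group was called for 0 of 33 members and 0 of 12093 genes.

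The members higher in tumor cells were a vacuole-acting GTPase, an RNA-binding protein and tetherin. Iigp1, the GTPase, was at 270.4, 0, 14.6, 139, 22.4 and 7.60 CPM in the tumor cells of spinal 1 to 3 and eRT 1 to 3, and at 58.2, 0, 1.15, 8.997, 8.83 and 0.767 CPM in the immune-like cells. It was higher in the tumor cells of every tumor except spinal 2, where it had no UMI in either (log2 fold change 2.60, SE 0.39, adjusted p = 0.000565). Ifit1, at 247, 1.37, 43.7, 137, 89.0 and 9.66 CPM in immune-like cells, was higher in tumor cells by 1.82 (SE 0.27, adjusted p = 0.00033), again with the exception of spinal 2. Bst2, at 581, 157, 247, 450.3, 175 and 134 CPM in immune-like cells, was higher in the tumor cells of 6 of 6 tumors by 1.0 (SE 0.25, adjusted p = 0.00929).

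The members lower in tumor cells included a sensor, nucleotide enzymes and a transcription factor. Zbp1, a sensor of Z-form nucleic acid that can start necroptosis, was at 338, 14.2, 60.03, 135, 96.7 and 23.8 CPM in immune-like cells and at 65.3, 0, 12.8, 53.4, 9.59 and 2.64 CPM in tumor cells (log2 fold change -2.66, SE 0.30, adjusted p = 4.44e-05). Its level was lower in the tumor cells of the 5 tumors other than spinal 2. Rsad2 differed by -2.06 (SE 0.41, adjusted p = 0.00252) and its chromosomal neighbor Cmpk2, a mitochondrial nucleotide kinase, by -1.89 (SE 0.41, adjusted p = 0.00421). The guanylate-binding protein gene Gbp3, which has close relatives among the Gbp genes, differed by -1.69 (SE 0.52, adjusted p = 0.0246). Oas1a, an oligoadenylate synthetase whose reads could be shared with the similar Oas1g, differed by -1.46 (SE 0.40, adjusted p = 0.0156). The other called members were Irf7 (-1.41), Ifit2 (-1.09), Rtp4 (-1.08), Oasl1 (-1.05), Parp14 (-0.90) and Ifi35 (-0.68). The 7 members with a lower value in tumor cells of 6 of 6 tumors (Zbp1, Rsad2, Cmpk2, Gbp3, Irf7, Ifit2 and Ifi35) had no UMI in the tumor cells of spinal 2, where 3 UMIs would be 66.3 CPM, so their direction rests on the other 5. Isg15 missed the threshold with 0.44 (95% interval -0.12 to 1.0), as did Igtp with -0.78 (adjusted p = 0.0664) and Ifi27l2a with 0.73 (adjusted p = 0.111). Without spinal 3 the count was 3 higher and 6 lower.

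In every other pathway list given here more genes were lower in tumor cells than higher. Of all genes, 19.1% were lower and 17.2% higher. Of 6 receptor subunits tested, 5 were lower and 0 higher, among them Ifngr1 (-2.98), Il10rb (-2.55), Ifnar1 (-1.95) and Ifnar2 (-1.90). Other interferon regulatory factors were lower in 4 of 5, with Irf8 at -5.53, Irf5 at -4.65, Irf4 at -4.62 and Irf2 at -1.64, several of which are lineage factors of immune cells. Sensors and adaptors were lower in 5 of 11 and higher in 0, with Tlr7 at -5.58, Tmem173 at -4.83, Aim2 at -3.74 and Tlr4 at -3.12. Inhibitors were lower in 4 of 7 and higher in 0, with Ptpn6 at -4.94, Samhd1 at -1.83, Socs3 at -1.52 and Socs1 at -1.30. Other antiviral effectors were lower in 16 of 32 and higher in 0, with Phf11b at -5.49, Ifi205 at -5.21, Slfn1 at -4.68 and Slfn5 at -4.37. Among 9 other GTPases tested, Gbp8 (-3.01), Gbp9 (-2.76), Gbp4 (-2.55) and Ifi47 (-1.80) were lower, and Gm4951 was higher (1.74), a further immunity-related GTPase gene. The only ligand gene tested, Ifng (-5.31), and 1 of 2 chemokine genes tested, Cxcl9 (-3.30), were lower. The receptor transcripts were few in tumor cells, with Ifnar1 at 14.4 to 44.2 CPM over the 6 tumors and Ifngr1 at 25.9 to 134.9 CPM.

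**Figure D3:**
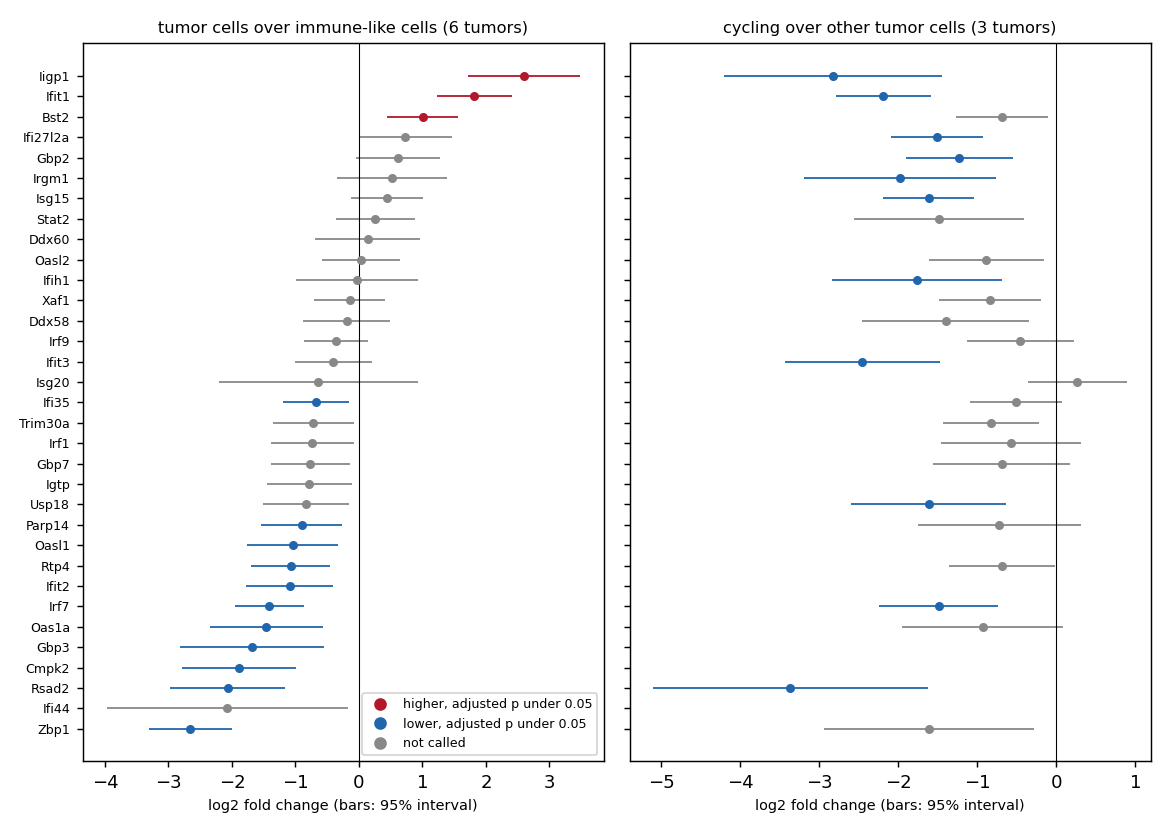
Log2 fold change of each member with its 95% interval, tumor cells against immune-like cells on the left and cycling against other tumor cells on the right, by edgeR with the tumor as a block; red and blue symbols passed an adjusted p of 0.05 and gray ones did not, and a gap is a member that was not tested. On the left 3 members were higher (17.2% of all genes tested were) and 11 lower (19.1% were). On the right 11 were lower (4.1% were) and 0 higher.

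Cycling tumor cells, the subclusters led by mitotic genes, had less of these transcripts than the other tumor cells of the same tumor. Spinal 3, eRT 2 and eRT 3 had 174, 16 and 57 such cells beside 1289, 187 and 571 others, and 18 mitotic genes summed to 2330, 1707 and 2653 CPM in them against 413, 151 and 122 CPM. Of 26 members tested, 11 were lower and 0 higher, beside 4.1% of 7800 genes lower, and 19 had an unadjusted p under 0.05. Their median was -1.31 on the log2 scale, beside -0.08 over all genes. Counting all 33, 26 had a lower value in all 3 tumors, although in the 16 cycling cells of eRT 2 a value of 0 says little, since 3 UMIs would be 58.9 CPM there. Immune genes did not run one way with this, at 721, 3923 and 556 CPM in cycling cells against 1435, 1024 and 1466 in the others, while macrophage markers were lower in cycling cells in each tumor (189, 137 and 845 CPM against 351, 602 and 2186), and their part was not tested. Without the tumor subclusters led by macrophage genes the count stayed at 11. Not every noncycling subcluster was higher. Without Ifi27l2a, the Ctla2a-led cells of eRT 2 had 454 CPM against 529.6 CPM in its cycling cells. The Mmp9-led cells of eRT 3 had 505 CPM against 549 CPM.

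The called members included effectors, GTPases, a sensor and 1 of the 4 transcription factors. Ifit1 was at 75.0, 0 and 11.8 CPM in the cycling cells of spinal 3, eRT 2 and eRT 3 and at 260.1, 247 and 78.4 CPM in the others (log2 fold change -2.19, SE 0.31, adjusted p = 1.53e-10). Ifit3 was at 7.01, 0 and 2.35 CPM against 39.4, 40 and 8.46 CPM (-2.46, SE 0.50, adjusted p = 4.02e-05). Isg15 was at 129, 98.1 and 49.4 CPM against 373, 308 and 143 CPM (-1.62, SE 0.30, adjusted p = 2.50e-06). Every cycling value of Ifit1 and Isg15 lay below that of the other cells of its tumor, as did those of Ifit3 in spinal 3 and eRT 3. Rsad2 had 1.40, 0 and 0 CPM against 13.5, 36.5 and 0.385 CPM (-3.36, SE 0.89, adjusted p = 0.0035), which rests on few UMIs. The GTPases Iigp1 (-2.82, SE 0.70, adjusted p = 0.00161) and Irgm1 (-1.98, SE 0.62, adjusted p = 0.0225) were lower too. The others called were the RNA sensor Ifih1 (-1.76), Usp18 (-1.62), the protease that removes Isg15 and damps receptor signaling, Ifi27l2a (-1.51), Irf7 (-1.49) and Gbp2 (-1.23). In the wider pathway 3 of 17 other antiviral effectors were lower (Ifitm1 at -1.36, Ifitm2 at -0.99 and Lgals3bp at -0.92) and the only other GTPase tested, Gm4951 (-2.71). None of 5 receptor subunits, 4 sensors and adaptors, 5 inhibitors, 3 other interferon regulatory factors and 1 chemokine gene was called. Isg20, an exonuclease of single-stranded RNA, was the only 1 of the 33 that was higher in cycling cells of all 3 tumors, at 69.4, 19.6 and 14.1 CPM against 60.4, 8.70 and 11.9 CPM, without passing the test (0.27, 95% interval -0.36 to 0.89). Igtp, too low to be tested, was at 7.71, 0 and 7.06 CPM against 22.4, 6.96 and 7.69 CPM.

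The count of 11 depended on the settings. DESeq2 called 4, the split by inferred cell cycle phase in 5 tumors called 1 with a median of -0.34, and without spinal 3 or without eRT 3 the count was 3 or 6. With each cell thinned to 1000 UMIs the members without Ifi27l2a gave 1.45, 0.75 and 0.544 UMIs per cycling cell in spinal 3, eRT 2 and eRT 3, against 3.04, 1.01 and 0.918 per other tumor cell. No cycling cell of these tumors and 21 other tumor cells, all of eRT 2, were left out as shallower. The sums without thinning were 1368, 529.6 and 549 CPM against 2683, 1612 and 881 CPM.

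**Figure D4:**
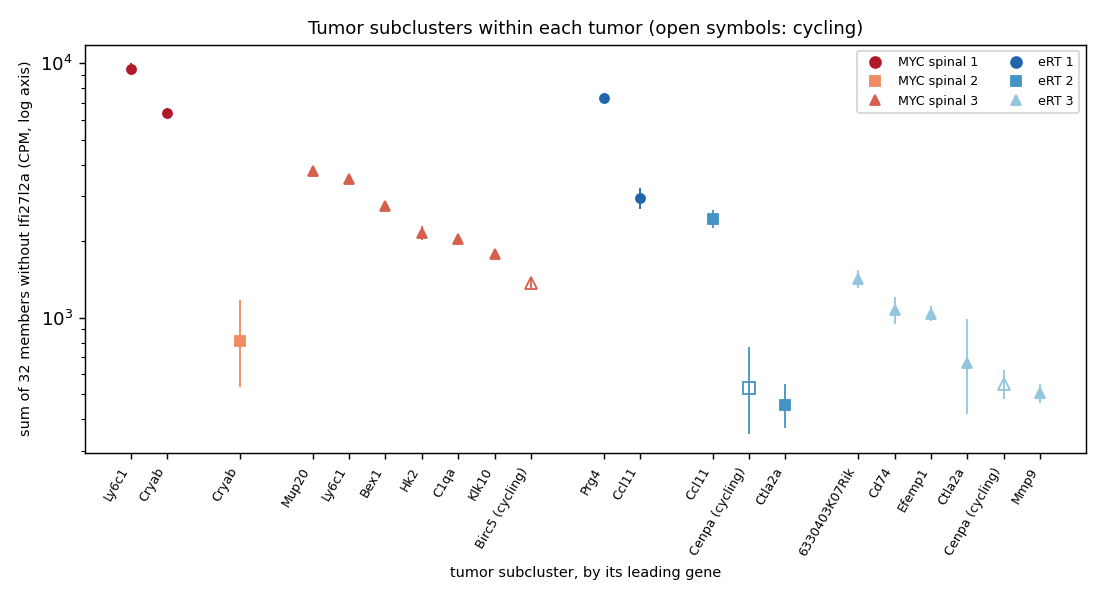
Summed level of the members without Ifi27l2a in each tumor subcluster, in CPM on a log axis, by tumor; open symbols mark the cycling subclusters and bars the exact Poisson 95% intervals. In spinal 3 the cycling subcluster was the lowest at 1368 CPM, and in eRT 2 and eRT 3 it stood near the lowest at 529.6 and 549 CPM.

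Noncycling tumor cells were themselves uneven. In spinal 3, subclusters named by their leading genes ran from 1784 CPM (Klk10) over 2755 CPM (Bex1) and 3516 CPM (Ly6c1) to 3775 CPM (Mup20 and Dlk1) for the members without Ifi27l2a. In eRT 3 they ran from 505 CPM (Mmp9) to 1423 CPM (6330403K07Rik), and in eRT 2 the Ccl11-led cells had 2450 CPM against 454 CPM in the Ctla2a-led cells. The 177 Mmp9-led cells of eRT 3 were thus no higher than its cycling cells (549 CPM). The same held for the 129 Ctla2a-led cells of eRT 2 and its cycling cells (529.6 CPM). Spinal 1 had 9480 CPM in Ly6c1-led and 6384 CPM in Cryab-led cells, and eRT 1 had 7320 CPM in Prg4-led and 2954 CPM in Ccl11-led cells. Every subcluster of spinal 1 thus lay above every subcluster of spinal 3, eRT 2, eRT 3 and spinal 2, whose only subcluster with 10 cells, led by Cryab, had 809 CPM. These are descriptions within single libraries, with no test.

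Among immune-like cells, the set was lowest, by its median fold change, in progenitor-like and then in NK cell-like cells. The types were tested in different sets of tumors. In the 883 progenitor-like cells of spinal 2 and the 37 of spinal 3, the members without Ifi27l2a summed to 224.5 and 371 CPM, against 2576 CPM in the 24 cells of spinal 1 that lacked progenitor markers. Against the other immune-like cells of the 3 tumors, 21 of 32 members tested were lower and 0 higher, beside 10.7% of 10018 genes lower, with a median of -1.83 and -0.17 over all genes. Without spinal 1 it was 14 of 27, with a median of -2.06, and without spinal 2 it was 10 of 32. Ifi27l2a was at 51.3 CPM in spinal 2 and 177.5 in spinal 3, and at 1792 in spinal 1 (log2 fold change -2.67, SE 0.30, adjusted p = 8.60e-17, and -3.75 with adjusted p = 3.89e-28 without spinal 1). Rsad2 had 1.22 CPM in spinal 2 and no UMI in spinal 3 and spinal 1 (-4.04, SE 0.77, adjusted p = 6.21e-06, and -3.56 with adjusted p = 0.000821 without spinal 1). Gbp2 (-2.71, SE 0.68, adjusted p = 0.00137) and Cmpk2 (-2.57, SE 0.79, adjusted p = 0.0127) lost their calls without spinal 1, at adjusted p = 0.172 and 0.0646. Oasl2 (-2.71, SE 0.59, adjusted p = 0.000128) kept it, at adjusted p = 0.0215.

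In NK cell-like cells, 11 of 33 members were lower and 0 higher than in the other immune-like cells of 6 tumors, beside 14.9% of 9589 genes lower, with a median of -0.95 and -0.24 over all genes. Ifi27l2a was at 248, 95.6, 354, 340.1, 58.9 and 333 CPM in the NK cell-like cells of spinal 1 to 3 and eRT 1 to 3, far below the 567 to 2233 CPM of all immune-like cells (-3.03, SE 0.29, adjusted p = 8.64e-14). Rsad2 (-2.42, SE 0.49, adjusted p = 8.69e-05), Oasl2 (-2.31, SE 0.41, adjusted p = 8.73e-06), Ifit2 (-2.27, SE 0.58, adjusted p = 0.00224) and Iigp1 (-2.13, SE 0.76, adjusted p = 0.0404) followed. Leaving out the TMM factors moved the median of all genes by 0.31 here and gave 1 higher and 8 lower. The summed level without Ifi27l2a did not run one way. It was above that of all immune-like cells in spinal 2 (765 against 425 CPM) and eRT 3 (1431 against 720.4 CPM). In the other tumors it was below.

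In T cell-like cells, of 33 members 2 were higher (5.78% of 10215 genes were) and 6 lower (15.2% were). Both counts were near the share of all genes, so they do not set the members apart. Isg20 was at 366, 25.3, 56.9, 205, 105 and 75.9 CPM in the T cell-like cells of spinal 1 to 3 and eRT 1 to 3 (log2 fold change 1.23, SE 0.32, adjusted p = 0.0148), each above the 277, 5.82, 20.9, 56.3, 93.3 and 10.3 CPM of all immune-like cells. Gbp7, a guanylate-binding protein gene, was the other higher member (0.77, SE 0.22, adjusted p = 0.0208). The lower members were led by Oasl1, which had no UMI in spinal 2, spinal 3 and eRT 3 and was at 19.3, 29.3 and 8.21 CPM in spinal 1, eRT 1 and eRT 2 (-2.25, SE 0.38, adjusted p = 0.00089). Rsad2 (-2.08), Oas1a (-1.94), Ifit2 (-1.82), Irf7 (-0.96) and Bst2 (-0.77) were the others. Without TMM factors there were 4 higher and 4 lower, with a shift of 0.30 in the median of all genes, and without eRT 2 there were 5 calls.

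Between 0 and 4 members were called in each of the macrophage-like, monocyte-like and neutrophil-like cells, near or below the share of all genes. Macrophage-like cells had 2 higher members of 33, beside 4.99% of 10143 genes higher, and 0 lower. Oas1a was at 280.2, 23.2, 100.1, 96.2, 31.2 and 28.5 CPM over the 6 tumors (1.05, SE 0.24, adjusted p = 0.0235), and Bst2 at 864, 239.5, 277, 479, 247 and 136 CPM (0.60, SE 0.15, adjusted p = 0.0296). Both were higher in 6 of 6 tumors than in the other immune-like cells, but without spinal 3 neither was called, and without each eRT tumor 1 was. In monocyte-like cells 0 of 33 were called, where 2.83% of 10162 genes were, although 9 had an unadjusted p under 0.05 and the median was 0.43 (DESeq2 called 0). Without spinal 1 the count there was 1 (Zbp1), with a median of 0.57, and without spinal 2 it was 1 (Rsad2). Neutrophil-like cells of spinal 2, spinal 3 and eRT 2 had 3 higher members of 31, beside 9.4% of 9091 genes, and 1 lower, beside 8.65%. Rsad2 was at 15.7, 58.7 and 464 CPM in these (1.76, SE 0.42, adjusted p = 0.000455), Isg20 at 7.22, 35.2 and 243 CPM (1.73, SE 0.43, adjusted p = 0.000875) and Bst2 at 19.7, 82.1 and 52.0 CPM (-1.63, SE 0.42, adjusted p = 0.00144). The RNA helicase gene Ddx60, the third higher member (2.11, SE 0.69, adjusted p = 0.0182), reached only 17.3 CPM. Without spinal 2, 1 of these 4 calls was left. Without TMM factors the neutrophil-like split became 2 higher and 11 lower, as the median of all genes moved by -0.74. In B-lineage-like cells 0 members were called (5.01% of 9298 genes were, 3 members had an unadjusted p under 0.05), as in dendritic cell-like cells (1.93% of 9398 genes, 3 members), and DESeq2 called 0 in both.

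**Figure D5:**
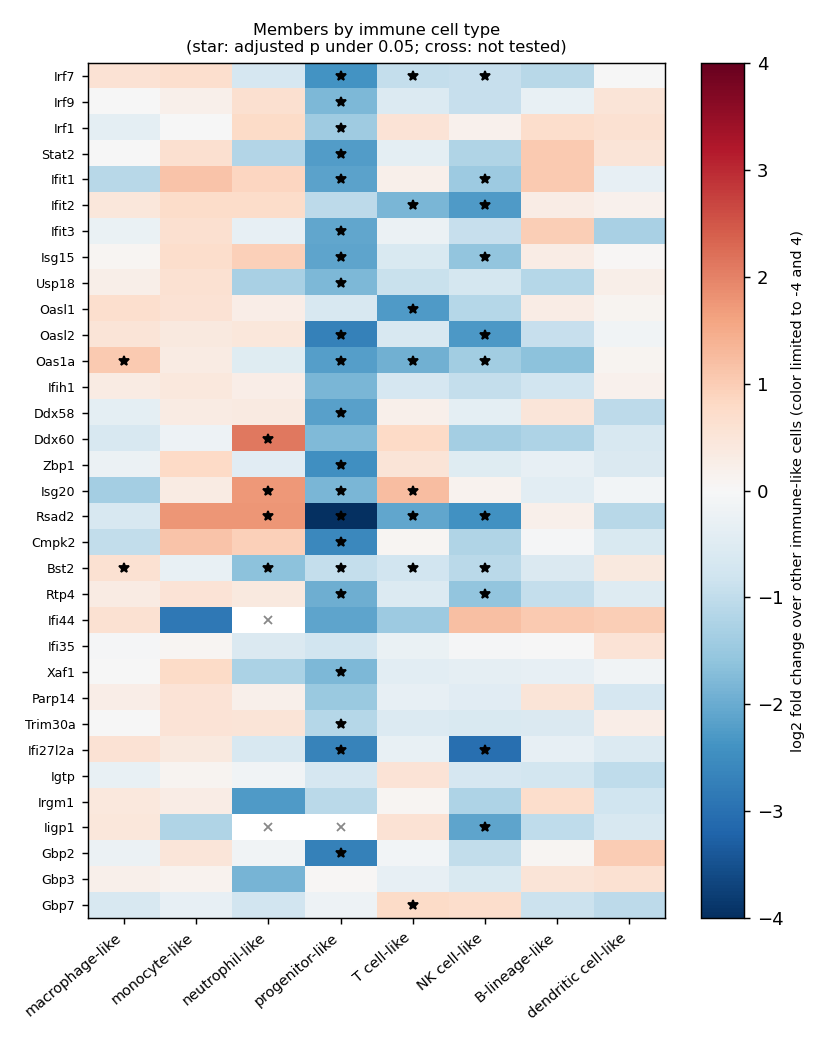
Heat map of the log2 fold change of each member in each immune type against the other immune-like cells of the same tumors, by edgeR with the tumor as a block; a star marks an adjusted p under 0.05 and a cross a member that was not tested. Progenitor-like cells held 21 lower members (10.7% of all genes tested were lower) and NK cell-like cells 11 (14.9%). Macrophage-like cells had 2 higher members, near the share of all genes (4.99%).

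Few interferon transcripts were captured. Ifng, interferon gamma, had 281 UMIs in all cells and was found in 12% of NK cell-like and 5.36% of T cell-like cells, against 0.162% of tumor cells and 0.144% of macrophage-like cells, types that should lack it. By tumor its share among T cell-like cells was 7.79% in spinal 1, 3.16% in spinal 2, 8% in spinal 3, 5.41% in eRT 1, 2.69% in eRT 2 and 1.31% in eRT 3. These shares were not thinned to equal depth (medians of 503.5 to 2085 UMIs), and their exact binomial 95% intervals were wide, from 3.52% to 15.2% in spinal 3 and from 0.159% to 4.64% in eRT 3, so no order is read from them. Ifnb1, interferon beta, had 36 UMIs, of which 23 lay in macrophage-like and 9 in monocyte-like cells. Ifnk had 4 UMIs, and Ifnz had 8, all of them in 8 tumor cells. Of the 14 ligand genes looked for, 10 had none. Genes seen in fewer than 3 cells were left out of the deposited counts, so a few UMIs could have been missed.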

How the data were processed

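The authors deposited raw UMI counts per gene and cell for 6 tumors, made with Cell Ranger 2.0.2 against mm10 from 10x Genomics 3' libraries of cells sorted to leave out dead ones, with genes kept that were seen in at least 3 cells. No column was left unmapped. The members and gene lists were chosen with earlier results of these data known. Cell names were serial, so barcodes shared between libraries could not be counted.

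Cells under 200 genes or over 25% mitochondrial UMIs were dropped (22163 of 22681 stayed; library totals of 3867853 to 26191718 UMIs) and clustered within each group with Seurat 5.3.0 (R 4.3.3; 2000 variable genes without the members, the other genes of the pathway and Smarcb1; 30 components, 20 neighbors, resolution 0.8). Clusters whose Smarcb1 UMIs were under 0.25 of those predicted by depth were tumor cells. Other clusters needed at least 3 of the markers of a type. Scrublet marked 21 cells (0.0948%), which shows that it did not work here, so doublets were kept and leaving out the 843 highest scores was an alternative.

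UMIs were summed per tumor and kind of at least 10 cells. Sums were tested with edgeR 4.0.16 (filterByExpr, TMM, quasi-likelihood test, Benjamini-Hochberg adjustment over all genes, threshold 0.05), with the tumor as a block wherever kinds from the same animal were compared. The pairing came from the labels, since both sums of a pair came from the same animal. The scripts were tested on simulated data. Replicates are tumors of separate animals. Cells were thinned to 1000 UMIs to equalize depth, and shallower cells were left out. CPM intervals are exact Poisson at 95%, and a count of 0 allows up to 3 UMIs.

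Values are given in full for Isg15, Igtp and the 8 other members of highest mean tumor-cell CPM, and statistics for the 5 called members of largest fold change per comparison and direction and up to 4 called genes per pathway list. Other genes were named after their values were seen. Alternatives were DESeq2 1.42.0, no TMM factors, no filter on low counts, stricter cells (500 genes, 10% mitochondrial UMIs), resolutions of 0.4 and 1.6, Smarcb1 limits of 0.15 and 0.5, no block, no cycling cells and each tumor left out. Added after the data were seen were the Smarcb1 limit per tumor, tumor cells without subclusters led by macrophage genes, and osteoclast-like cells counted as immune-like. The list of kinases and STATs is not reported here.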

Additional observations from a re-analysis of the deposited data

How the results depend on the processing

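No named member reversed: of 509 alternative values for 36 called results, 421 kept direction and call and 88 kept direction only. The counts of members called moved by more than 1.5 times in these cases, and the cause was not tested except where fewer samples entered. DESeq2 called 4 in cycling against other tumor cells (edgeR 11), 9 in progenitor-like (21), 5 in NK cell-like (11) and 1 in monocyte-like eRT against MYC spinal tumors (0). Without a filter on low counts, 2 were called in the last of these and 2 in monocyte-like against other immune-like cells (0), where dropping TMM factors gave 1, and dropping them gave 13 in neutrophil-like cells (4). Stricter cells left 1 in neutrophil-like cells. At resolution 0.4, 0 were called in macrophage-like (2) and 15 in dendritic cell-like cells (0), and at resolution 1.6 the counts were 1 and 1. Inferred phases gave 1 for cycling cells, and counting osteoclast-like cells as immune-like gave 9 for tumor cells against immune-like cells (14). The 13.9-fold range of the summed level became 10.7 without Ifi27l2a and 27 at resolution 0.4, and 13.2 without cycling cells.

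The replicate block, the tumor, mattered throughout: without it the counts were 1 for tumor against immune-like cells, 0 for cycling cells, 0 for macrophage-like, neutrophil-like, progenitor-like and T cell-like cells, and 1 for NK cell-like cells.

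Leaving out each tumor in turn gave 9 (without spinal 3) to 15 for tumor against immune-like cells and 3 (without spinal 3) to 15 for cycling cells. It gave 0 to 3 for macrophage-like, 0 to 1 for monocyte-like, 1 to 3 for neutrophil-like, 10 to 18 for progenitor-like, 5 to 9 for T cell-like, 9 to 12 for NK cell-like and 0 to 2 for B-lineage-like cells. Depth limits spinal 2 most, where 3 UMIs in tumor cells were 66.3 CPM.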

Other observations

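In the eRT tumors, a small macrophage-like cluster of 36, 12 and 12 cells in eRT 1, eRT 2 and eRT 3 was led by interferon-stimulated genes, with Ifit3, Irf7, Ifit2 and Usp18 among its leading genes beside the chemokine gene Cxcl10. The members without Ifi27l2a summed there to 14350, 19110 and 7635 CPM, against 2724, 1846 and 627 CPM in the other macrophage-like cells of the same tumors. The level was not particular to that cluster: 13 cells of eRT 1 in a macrophage-like cluster led by Ccl7 had 13640 CPM, and 19 cells of spinal 1 in a monocyte-like cluster led by Ccl6 had 11360 CPM. Of the 33 members, 33, 32 and 27 were higher in the cluster in the 3 tumors, and 26 were higher in all 3. The cluster was found with related genes of the same cells, so these values are a description with no test.

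Plasmacytoid dendritic cell-like cells, a type known for making type I interferon, reached 10 cells only in spinal 2, with 186 cells. The members without Ifi27l2a summed to 4070 CPM in them (exact Poisson 95% interval 3711 to 4455), against 425 CPM in all immune-like cells of that tumor. Bst2 alone gave 3605 of these CPM, or 418 of 472 UMIs, and Isg15 was at 25.9 CPM, so most of the contrast is that of 1 gene. Osteoclast-like cells had 741.9 CPM in spinal 3, 1932 in eRT 1, 1362 in eRT 2 (22 cells) and 178 in eRT 3 (16 cells).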
